A study of Mus musculus with 2 samples.

Results

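Mir483 and Mir675 are the microRNA (miRNA) genes of the imprinted Igf2-H19 locus, described here by their levels in embryonic mouse heart. They were taken by gene ID from the table of miRNA gene counts, as the 2 genes among 1973 that GENCODE names Mir483 and Mir675. Small RNAs, of a size range labelled as under 30 and read here as nt, were sequenced from healthy hearts of the mouse strain B6NCrl at embryonic day 11.5, in 2 libraries that form the only group. Each library came from a pool of male and female embryos, and replicate 1 pooled the hearts of 109 embryos; the number for replicate 2 is not given. No genotype, treatment or second tissue was compared, so the questions were how abundant the 2 miRNAs are, how they stand to each other and how well the libraries agree on them.

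At this locus the copy inherited from 1 parent is silenced. Igf2, which encodes a growth factor of the fetus, is read from the paternal copy, and H19, a long noncoding RNA, from the maternal copy, under a shared control region that is methylated in sperm. A miRNA is cut from a hairpin in a longer transcript into mature strands of the 5′ and 3′ arms, and a mature strand finds its target messenger RNAs mainly through its seed, the bases from position 2 to 8. Mir483 lies inside Igf2. Mir675 is cut from H19 itself, and in mice it is known as a brake on growth of the placenta, with the Igf1 receptor gene Igf1r as a reported target.

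The mature sequences are shown because they decide both what the miRNAs could pair with and whether their reads can be told from those of other genes. They are from RefSeq on GRCm38.p6, where both genes matched by symbol, and are written 5′ to 3′ with the seed in capitals.
mmu-miR-483-5p: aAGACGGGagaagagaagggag
mmu-miR-483-3p: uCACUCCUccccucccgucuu
mmu-miR-675-5p: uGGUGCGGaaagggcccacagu
mmu-miR-675-3p: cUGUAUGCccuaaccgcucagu
None of the 4 seeds was found in another of the 1674 distinct mature sequences in that table. A seed shared with no other mature sequence is common, holding for 72.5% of them, so Mir483 and Mir675 each stand outside any seed family here.

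The hairpins show how the arms lie, with the mature sequences in capitals.
Mir483 hairpin: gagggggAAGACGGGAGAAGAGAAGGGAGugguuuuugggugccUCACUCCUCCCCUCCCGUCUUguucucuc
Mir675 hairpin: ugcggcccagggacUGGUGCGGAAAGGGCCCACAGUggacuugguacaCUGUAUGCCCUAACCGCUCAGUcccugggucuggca
The Mir483 hairpin has 73 bases and the Mir675 hairpin 84. The arms of Mir483 are one-sided in base composition. In miR-483-5p 21 of 22 bases were purines, the highest share (95.5%) among the 1738 mature entries, and in miR-483-3p 19 of 21 bases were pyrimidines, a share of 90.5%. The arms of Mir675 were mixed, with 14 and 8 purines of 22 in the 5p and the 3p strand.

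Folded by minimum free energy, the Mir483 hairpin reached -33.8 kcal/mol and the Mir675 hairpin -56.0 kcal/mol. Per base this was -0.463 kcal/mol for Mir483 and -0.667 kcal/mol for Mir675, against a median of -0.406 kcal/mol over 1005 RefSeq hairpins. Only 22 hairpins had a lower predicted energy per base than Mir675, while 257 had a lower one than Mir483. Paired bases made up 74.0% of the Mir483 hairpin and 76.2% of the Mir675 hairpin. The less abundant of the 2 miRNAs thus had the lower predicted energy, which describes these letters and not the cutting of the hairpin in the cell.

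**Figure D1:**
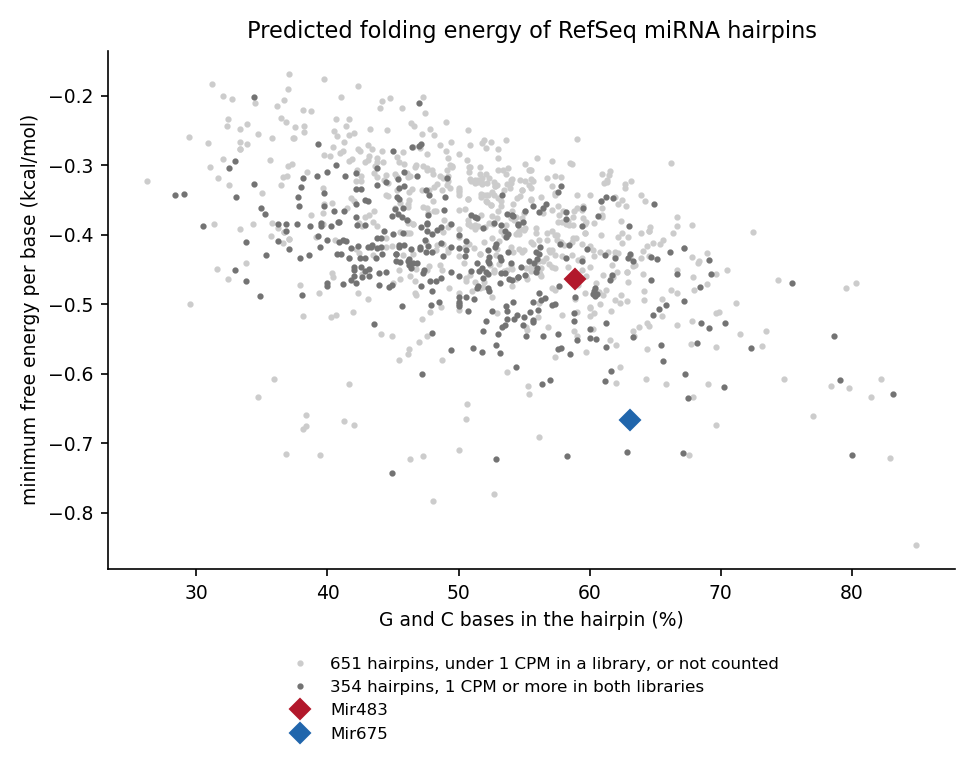
Minimum free energy per base (kcal/mol) against the share of G and C bases (%) for 1005 RefSeq miRNA hairpins, with Mir483 and Mir675 as diamonds and darker points for hairpins of genes at 1 CPM or more in both libraries. Mir675, at 63.1% G and C, lies at -0.667 kcal/mol per base, among the lowest points, and Mir483, at 58.9%, lies at -0.463 kcal/mol inside the main cloud.

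Mir483 (ENSMUSG00000070140.1) lies on the minus strand of chromosome 7, chr7:142654924-142654996 on GRCm38, the build also called mm10. In the GENCODE M21 annotation it sits in an intron of 1205 bases in 7 of the 9 Igf2 transcripts, and the remaining ones do not span it. In 6 of these transcripts that intron is intron 2. Mir483 also lies within Gm49394, another protein-coding gene on that strand. Mir675 (ENSMUSG00000076275.1) lies on the same strand, chr7:142577064-142577147. Of the 7 H19 transcripts, 3 carry it in an exon, in 2 of these in exon 1, while 1 carries it in an intron and 3 do not span it. The miRNA genes are 77.8 kb apart and Igf2 and H19 are 72.6 kb apart, with both transcribed the same way.

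**Figure D2:**
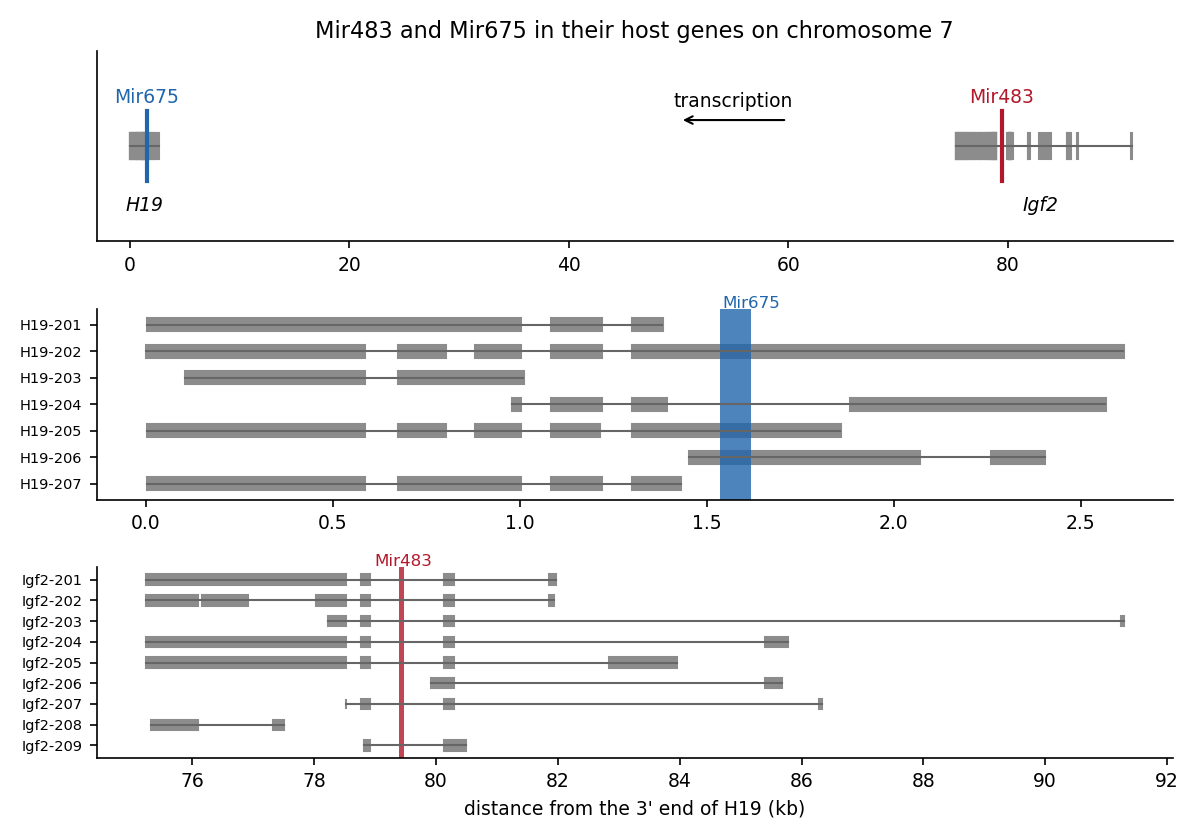
Map of both hosts, with distance from the 3′ end of H19 in kb on each horizontal axis: the whole locus at the top, the 7 H19 transcripts in the middle and the 9 Igf2 transcripts below, with exons as boxes and introns as lines. The band of Mir675 crosses exons of 3 H19 transcripts and the intron of 1 more, and the band of Mir483 lies in the same intron in 7 Igf2 transcripts.

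Mir483 was among the abundant miRNAs of these hearts. Replicate 1 held 144463 own-strand reads of Mir483 and replicate 2 held 15871, which is 7823 and 7867 counts per 1000000 counts on miRNA genes (CPM). The exact 95% Clopper-Pearson intervals, which cover counting error only, were 7782 to 7863 CPM and 7746 to 7990 CPM, and they overlapped. The mean was 7845 ± 32 CPM (SD, n = 2), or 0.785% of the counts, and it ranked 25 of 1973 genes. Genes above it held 76.2% of the counts. Reads that map to several places, 20.8% of reads in replicate 1 and 24.1% in replicate 2, are on no gene. Genes that share mature sequences with other loci may therefore stand too low. The mature sequences of both members shared no run of 12 bases with another RefSeq hairpin. Their ranks may be too high for that reason, and by how much was not tested. The RNAs sequenced were labelled as under 30, shorter than either hairpin, and CPM were not divided by gene length. Whether each read covers a whole mature miRNA was not analysed here. The counts are per gene, so reads of the 5p and 3p strands are added together, and how the arms share the 7845 CPM was not analysed here.

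Mir675 was present at a moderate level. Replicate 1 held 4568 own-strand reads of it and replicate 2 held 474, which is 247 and 235 CPM. The exact intervals were 240 to 255 CPM in replicate 1 and 214 to 257 CPM in replicate 2, so the wider one, from the shallower library, spans the other. The mean was 241 ± 8.8 CPM (SD, n = 2), at rank 147. Of the 419 genes with at least 1 CPM in both libraries, called detected here, 394 ranked below Mir483 and 272 below Mir675. The median detected gene stood at 80.5 CPM, so Mir483 stood 97.4-fold and Mir675 2.99-fold above it. The rank of Mir675 and this median also leave out reads that map to several places.

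**Figure D3:**
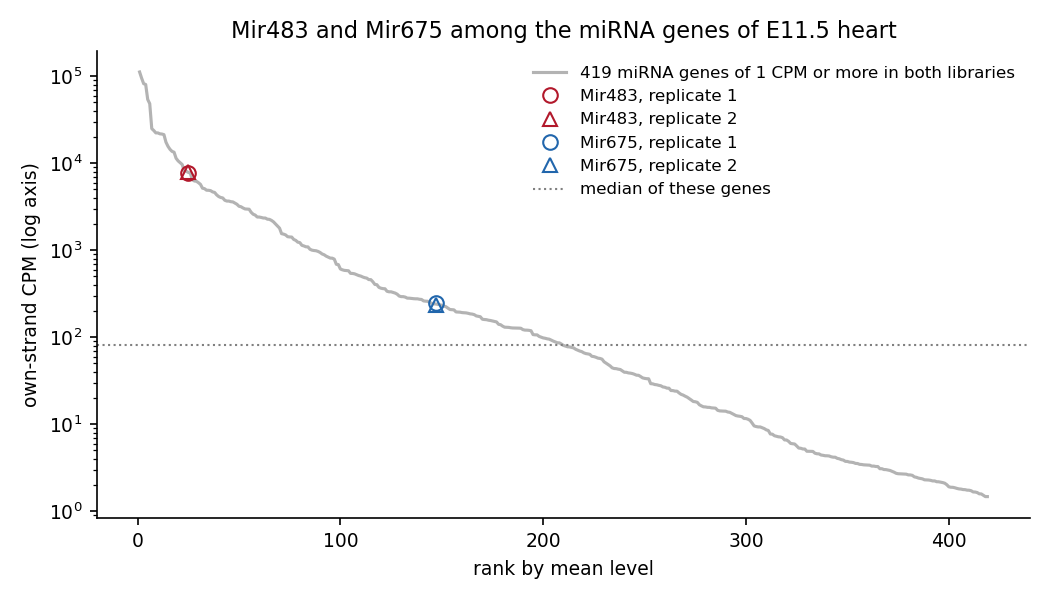
Own-strand CPM on a log axis against rank by mean level for the 419 detected miRNA genes (grey line), with the 2 libraries of each member as an open circle (replicate 1) and an open triangle (replicate 2). Mir483 sits on the upper shoulder of the curve at rank 25 and Mir675 in its middle slope at rank 147, and circle and triangle overlap for both; the dotted line marks the median of 80.5 CPM.

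The libraries behind these values differed 9.15-fold in depth, at 18467499 own-strand miRNA counts for replicate 1 and 2017294 for replicate 2. Half-widths of the exact intervals were 0.514% and 1.55% of the value for Mir483 and 2.91% and 9.11% for Mir675, in replicates 1 and 2. As a check of the tissue, the heart muscle miRNAs Mir208a, Mir208b and Mir499 were all detected, together at 58391 CPM (replicate 1) and 63138 CPM (replicate 2). Of 4 neural miRNAs listed, only Mir137 was detected, at 24.7 and 23.3 CPM; Mir124a-1 and Mir9-2 had 0 counts, which says little since their mature sequences also come from other loci, and Mir9-1 was not analysed here. In bulk tissue, fewer cells making a miRNA and less of it per cell cannot be told apart.

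Between the members the difference was large and repeated in both libraries. Mir483 exceeded Mir675 31.6-fold in replicate 1 (exact binomial interval 30.7 to 32.6) and 33.5-fold in replicate 2 (30.6 to 36.8). The mean log2 ratio was 5.02 ± 0.058 (SD, n = 2), a 32.5-fold difference, and it was larger than the spread between the libraries. Mir483 made up 96.9% of the pair's counts in replicate 1 and 97.1% in replicate 2. An exact two-sided test that flips the sign of each library cannot go below p = 0.5 here, so none was run. How efficiently each sequence enters a library was not tested. The ratio compares small RNA counts on the miRNA genes and does not measure the transcripts of Igf2 and H19.

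Ratios of this size between neighbouring miRNA genes were not rare in these libraries. Among 136 pairs of detected genes that follow each other on 1 strand within 100 kb, the median absolute log2 ratio of mean CPM was 2.92, against 5.02 for Mir483 and Mir675. In 34 of the pairs it was larger. Most of these pairs were under 10 kb apart. In the 16 pairs that were 10 kb or more apart, Mir483 with Mir675 among them, the median was 2.64 and 3 pairs had a larger ratio. Where a gene shares its mature sequence with other loci, reads lost to multimapping can change the ratio of its pair. How many of the pairs this affects was not tested, so these pairs are an uncertain background for the members.

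Few other miRNA genes surround the locus. Within 1 Mb of either member the table holds 3 more, of which Mir7063, in an intron of Ap2a2, had 24 counts in replicate 1 and 4 in replicate 2. Mir7064, in an intron of Cars, had 20 counts and 1 count, and Mir3104, in an exon of Brsk2, had 0 in both. A count of 0 allows up to 0.162 CPM in replicate 1 and 1.49 CPM in replicate 2, taken as 3 counts. All 3 stood under 2 CPM in both libraries, far below both members. Over chromosome 7, where 24 of 137 counted miRNA genes were detected, Mir483 ranked first and alone held 66.8% of the chromosome's own-strand counts. The next on the chromosome was Mir210 at 1120 ± 51 CPM, a miRNA induced by low oxygen, and Mir675 came seventh.

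A miRNA is cut from a transcript that spans it, so the members were set beside genes placed alike. Whether Mir483 is cut from transcripts of Igf2 or of Gm49394 was not tested. Mir483 ranked 11 among 158 detected genes in introns of protein-coding hosts on the same strand, a class with a median of 45.8 CPM over detected genes. In that class it followed Mir744 in Map2k4 at 8202 ± 339 CPM and preceded Mir151 in Ptk2, which stood at 6251 ± 76 CPM. Mir675 ranked 18 among 44 detected genes in exons of long noncoding hosts, where the median was 161 CPM and Mir17, of the Mir17hg transcript, stood highest at 21312 ± 1147 CPM. Mir483 was thus well above the middle of its class and Mir675 nearer to it. These class ranks and medians also leave out reads that map to several places.

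By level over the 2 libraries, the genes most like Mir483 were Mir20a, Mir487b, Mir744 and Mir298, at Euclidean distances of 0.065, 0.092, 0.111 and 0.399 on log2(CPM + 1). Mir20a, of the proliferation-linked miR-17-92 cluster, stood just above it at 8093 ± 99 CPM. Mir483 was 0.969-fold of Mir20a (log2 ratio -0.04 ± 0.012), a small difference that was larger than the spread, with both libraries' intervals under equality. Mir487b, of the imprinted Dlk1-Dio3 cluster, stood just below at 7710 ± 416 CPM, and Mir483 did not differ from it or from Mir744 beyond the spread. Mir298, from the imprinted Gnas locus, stood lower at 6453 ± 51 CPM, and Mir483 exceeded it 1.22-fold, beyond the spread.

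The genes most like Mir675 were Mir700, Mir293, Mir215 and Mir223, at distances of 0.035, 0.042, 0.088 and 0.118. Mir700, in an intron of Rcan3, stood at 242 ± 3.0 CPM and Mir293, of the pluripotency-linked miR-290 cluster, at 246 ± 9.5 CPM. Mir215, a gut and liver miRNA, stood at 252 ± 12 CPM and the myeloid Mir223 at 236 ± 26 CPM. Mir675 differed from none of the 4 beyond the spread, nor from Mir182, next below it in rank at 239 ± 54 CPM. Its place in the order is therefore loose. Mir483 lay below Mir20a and above Mir298 in both libraries, but 2 libraries cannot settle a difference as small as that from Mir20a.

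Beside other imprinted miRNAs, Mir483 stood near the top and Mir675 near the middle. Taken by place, 59 counted genes lie between Dlk1 and Dio3 on chromosome 12, a large imprinted miRNA cluster, and 47 of them were detected, with a median of 289 CPM against 80.5 CPM over all detected genes. Of the 47, 1 stood above Mir483, 23 between the members and 23 below Mir675. In Sfmbt2, host of another imprinted cluster, 10 of 107 counted genes were detected, with a median of 177 CPM, 5 between the members and 5 below Mir675. That cluster is made of repeated miRNA genes, and reads that map to several places are on no gene. How many of its genes are detected, and at what level, is therefore uncertain. A shorter list of 16 miRNAs from several imprinted loci, drawn up with earlier results known, held mostly abundant genes and is no sample of such loci. Of the 16, Mir136 was not analysed here and Mir344 had 0 counts; the other 14 had a median of 2719 CPM. Mir483 was exceeded by 2 of these, Mir335 of the Mest gene at 111844 ± 5328 CPM and Mir411 of the Dlk1-Dio3 cluster at 9666 ± 383 CPM. Of the imprinted genes named, Mir487b, which the list leaves out, stood next below Mir483, followed by Mir298 and by Mir431, a Dlk1-Dio3 miRNA, at 5978 ± 13 CPM. Mir296, from the Gnas locus, stood at 5102 ± 283 CPM. Mir675 exceeded 1 of the 14, Mir410 at 141 ± 12 CPM, a place near the bottom that belongs to this list and not to the whole clusters.

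Several other miRNAs are reported to act on transcripts of insulin-like growth factor (IGF) signalling, some of them in human cells. Of 10 such genes listed, 8 were counted and detected, with a median of 571 CPM; Mir378a and Mir497 were not analysed here. Mir483 was exceeded by Mir99a alone, at 54071 ± 2017 CPM. Mir100, of the same miRNA family, stood at 4681 ± 475 CPM, Mir145a at 1238 ± 106 CPM and Mir139 at 906 ± 23 CPM. Below Mir675 lay Mir223, Mir7-1 (also called Mir7a-1) at 48.6 ± 2.8 CPM, Mir133a-1 with 30 counts in replicate 1 and 11 in replicate 2, and Mir1a-1 with 55 and 3. Mir7-1, Mir133a-1 and Mir1a-1 share mature sequences with other loci, so their counts are uncertain.

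**Figure D4:**
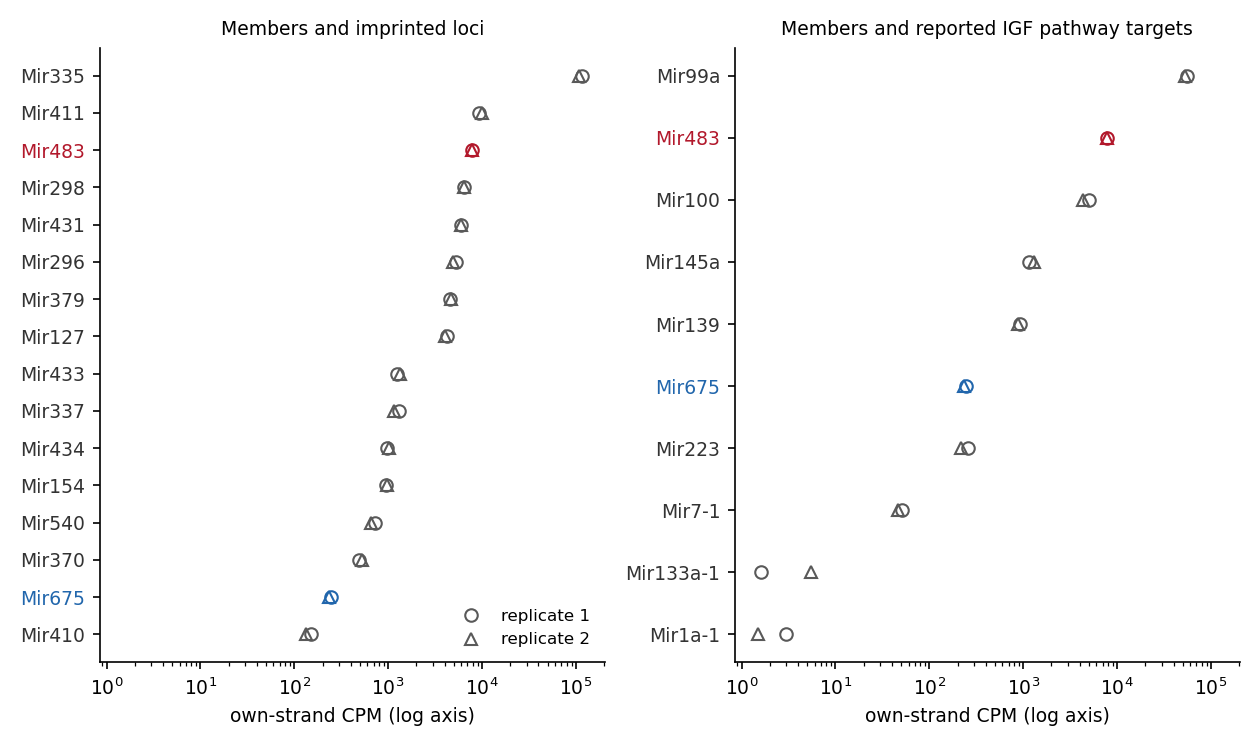
Own-strand CPM on log axes, with a circle for replicate 1 and a triangle for replicate 2, for both members (coloured) beside the 14 detected miRNAs of the short imprinted list (left) and detected miRNAs with reported IGF pathway targets (right). Mir483, at 7823 and 7867 CPM, stands below Mir335 and Mir411 on the left and below Mir99a on the right; Mir675, at 247 and 235 CPM, has Mir410 as the 1 listed gene below it on the left.

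The 2 libraries gave nearly the same level of Mir483. Replicate 2 over replicate 1 was 1.01, exact 95% limits 0.989 and 1.02. An exact binomial test, two-sided and conditional on both depths, gave p = 0.492 and an adjusted p of 0.731. Of the 419 detected genes, 17 had a smaller absolute log2 ratio, or 4.06%. For Mir675 the ratio was 0.95, exact limits 0.862 and 1.04 (same exact test, p = 0.298 and adjusted p = 0.537), and 28.9% of detected genes had a smaller absolute ratio.

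Of the 2 members, 0 passed this test at an adjusted p of 0.05, and 0 had an unadjusted p under 0.05. Over all 419 genes tested 29.4% passed (123 genes), with 14.3% higher and 15.0% lower in replicate 2. A further demand of at least a 2-fold difference left 2.63% (11 genes), with 0 members, and 146 genes had an unadjusted p under 0.05. The test allows for counting error alone and compares these libraries, not conditions. edgeR's exact test called 4 genes and neither member. Its dispersion was estimated over all detected genes with these same libraries taken as replicates of each other. That dispersion holds the differences under test, so few calls were built in, and no conclusion about the members is drawn from it. Both members had smaller ratios than the middle gene of like level. For Mir483 the log2 ratio was 0.008, against a median absolute value of 0.069 and a range of -0.24 to 0.14 over 28 genes within 2-fold of its level. For Mir675 it was -0.074, against a median absolute value of 0.113 and a range of -4.23 to 1.06 over 80 genes.

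**Figure D5:**
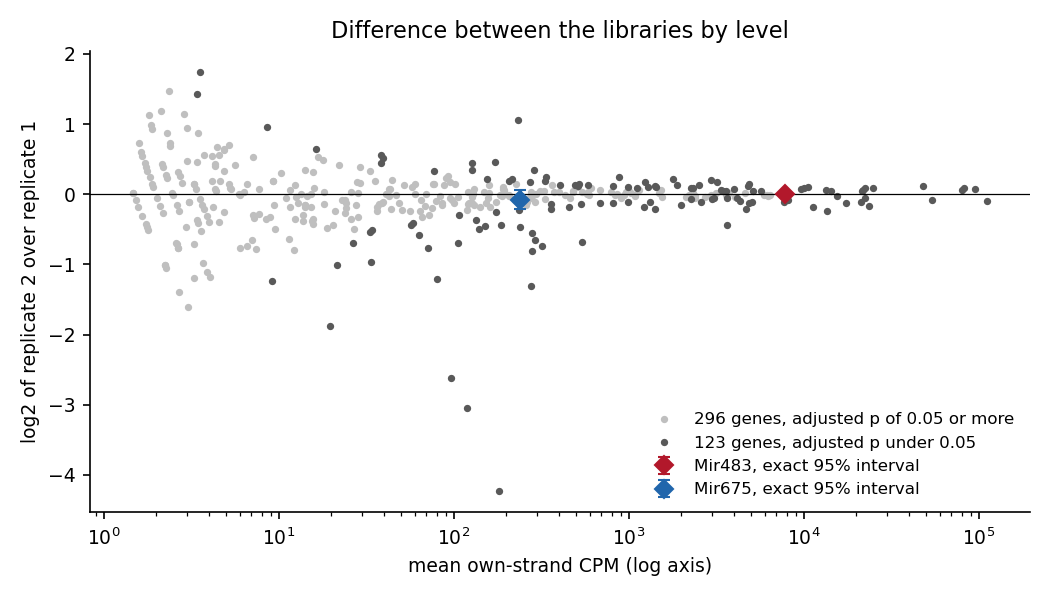
Log2 of replicate 2 over replicate 1 against mean own-strand CPM (log axis) for 419 detected genes, with 123 genes at an adjusted p under 0.05 in dark grey, the others in light grey, and the members as diamonds with exact 95% intervals. Mir483 lies on the zero line at 0.008 with an interval too narrow to see, and Mir675 lies just under it at -0.074 with an interval that crosses zero.

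Several tissue markers passed the test between the libraries while neither member did. All 7 epithelial markers were detected and lower in replicate 2, with a summed level of 2144 CPM (replicate 1) and 1488 CPM (replicate 2). All 4 liver and endoderm markers were detected, at 617 and 304 CPM summed, and 3 were lower in replicate 2; the hepatocyte miRNA Mir122 stood at 395 and 160 CPM. The 3 heart muscle markers were all higher in replicate 2, with log2 ratios between 0.10 and 0.21. Of 3 red cell markers, at 1084 and 1036 CPM summed, Mir486 was lower in replicate 2, at 89.5 and 52.5 CPM, while Mir451a and Mir144 did not pass. Mir675 was 0.626-fold of Mir122 in replicate 1 and 1.47-fold in replicate 2, whereas Mir483 stood above it 19.8-fold and 49.1-fold. Summed levels in replicates 1 and 2 were 268 and 237 CPM for leukocyte markers and 79505 and 84700 CPM for the endothelial Mir126a. Smooth muscle markers reached 93726 and 98626 CPM, while skeletal muscle markers stayed under 100 CPM. Mir126a and the smooth muscle Mir143 and Mir145a passed, higher in replicate 2. Both counted leukocyte markers passed in opposite directions, Mir223 lower and Mir150 higher. Of the skeletal muscle markers Mir206 passed, lower in replicate 2, and Mir133b did not. Over all genes tested, 29.4% passed. The part of such tissue in the counts of Mir483 and Mir675 was not tested.

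Passing this test was common among abundant genes: 20 of the 28 genes within 2-fold of the level of Mir483 passed, and 28 of the 80 within 2-fold of Mir675, against 29.4% of all tested. Of the 47 detected genes between Dlk1 and Dio3, 12 passed, 6 higher and 6 lower in replicate 2. Of the 14 listed imprinted genes 7 passed, 2 higher and 5 lower, with a median log2 ratio of -0.01 and a range of -0.18 to 0.10. The median over all detected genes was -0.013. Of the genes with reported IGF pathway targets, 5 of 8 passed, 2 higher and 3 lower in replicate 2. Mir99a was lower in replicate 2, 0.949-fold of replicate 1 (exact test, adjusted p = 1.61e-59). Mir145a was higher, 1.13-fold (exact test, adjusted p = 5.23e-08).

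The mature sequences of both members could be told from the other miRNA hairpins searched. None of the 4 shared a run of 20 bases, or even of 12, with the hairpin of another gene among 1005 RefSeq hairpins. The table counts 1973 miRNA genes, so shared runs were not searched in all of them. Among GENCODE M21 transcripts, both miR-483 strands were found exactly in Mir483 alone, and both miR-675 strands in Mir675 and in its host H19. A short fragment of H19 over the hairpin thus cannot be told from miR-675 by its letters. Matches elsewhere in the genome were not analysed here.

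To show where the seeds could pair, the 3′ UTRs of 10 genes of the IGF pathway were searched for the 7 letters complementary to each seed, on the sense strand and in the longest annotated UTR of each gene. GCATACA, the complement of the miR-675-3p seed, occurred at 2 places in Igf1r, the receptor gene, and at 1 place in Insr, the insulin receptor gene, where 23.3% of UTRs of like length hold it. It was found in 7.89% of the 3′ UTRs of 21020 genes, and, in UTRs within 20% of the length of that of Igf1r (7267 bases), in 37.2% at least once and in 7.18% at 2 or more places. The Igf1r stretches, with the match in capitals, begin their matches at bases 505 and 1264 of the UTR.
Igf1r first match: ctcctcatcaccccGCATACAcctgcc
Igf1r second match: accgtgaaacatttGCATACAcatcgt
A match describes letters and is neither a shown site nor an effect in these hearts, where messenger RNA was not measured.

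For miR-483-3p the letters AGGAGTG occurred once each in 5 of the 10 UTRs, those of Igf1, Igf2, Irs1, Igf2bp1 and Igf2bp2, and in 10.7% of all UTRs. In UTRs as long as these 5 it was found in 14.1% (Igf2bp2) to 39.1% (Igf1). Igf2 itself, a host of Mir483, holds its match from base 1919 of a UTR of 3050 bases, and 21.6% of UTRs of like length hold one.
Igf2 match: ccccagaagttctgAGGAGTGgagggg
The UTR of Irs1, an adaptor protein of the insulin and IGF receptors, holds its match before an A, and 27.6% of UTRs of its length hold a match. No other match found in the 10 UTRs, for any of the strands, stood before an A. For miR-483-5p CCCGTCT was found in Igf2bp1 alone of the 10, where 9.22% of UTRs of like length (6337 bases) hold it and 2.68% of all UTRs. For miR-675-5p CCGCACC was found in 0 of the 10 UTRs, against 1.84% of all UTRs, which says only that these letters are not in these windows.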

How the data were processed

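Small RNA libraries of 2 heart samples were analysed. For every miRNA gene the authors deposited unnormalized counts, made on mm10 with GENCODE M4, per the file headers in the notes. The sources used here name neither aligner nor counter. Count columns carry no names and were read from their sums as both strands, own strand and opposite strand; own-strand counts were used. Summary rows were left out: 38.4% unmapped, 20.8% multimapping and 8.77% on no gene in replicate 1, against 27.5%, 24.1% and 7.04% in replicate 2. Reads that map to several places are on no gene.

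CPM, exact Clopper-Pearson intervals and exact binomial tests (Benjamini-Hochberg over 419 genes) were computed with scipy 1.17.1. The binomial test was checked on simulated counts that hold set changes and counting error only. That is the error the test assumes, so the check does not cover further variation between libraries. A difference between genes was called larger than the spread where the libraries shared its direction, neither interval held equality and the mean log2 ratio exceeded its SD. Ranks are over all 1973 genes; detection means at least 1 CPM in each library. Symbols and places came from GENCODE M21 on the same build, where 1894 gene IDs matched; 2 listed symbols were found by their RefSeq synonyms. Hairpins were folded with RNAfold 2.7.2. edgeR 4.0.16 and DESeq2 1.42.0 gave alternatives. The labels call the libraries biological replicates; nothing used here says how litters were split, so the spread between them may be partly technical.

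Genes were named by a rule: both members, miRNA genes within 1 Mb, the 4 nearest in level to each member, the fixed lists, and seed sharers. The members, lists and the UTR, host and cluster comparisons were chosen with earlier results of these data known. Mir182, Mir210 and the named genes of host classes lie outside it and were chosen after their values were seen.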

Additional observations from a re-analysis of the deposited data

Results flagged for a closer look

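Reads on the strand opposite Mir675 were outside the comparisons and numbered 5 in replicate 1, above the 3 counts that a count of 0 allows, and 0 in replicate 2. They made up 0.109% of the reads at the gene in replicate 1 (exact 95% interval 0.0355 to 0.255%). In replicate 2 a count of 0 allows up to 0.633%. The strand opposite Mir483 had 0 in both libraries.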

How the results depend on the processing

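For the 32.5-fold excess of Mir483 over Mir675, log2 ratios ran from 4.98 to 5.07 when either replicate was left out. With both strands counted, or 0.5 counts added, the ratio stayed at 5.02. Those alternatives add too few counts to change its direction. Levels depend on the denominator: with both strands counted Mir483 stood at 7489 CPM and Mir675 at 230 CPM, with multimapping reads in the denominator at 4855 and 149 CPM, and without the most abundant gene at 8833 and 272 CPM. With TMM or DESeq2 scaling they stayed at 7845 and 241 CPM. Those factors balance out over the 2 libraries, so the means could hardly move and this is no check of them. Single replicates, the values behind the means, gave 7823 to 7867 and 235 to 247 CPM. With both strands counted, or the larger strand taken, the ranks were 26 and 156. Single replicates gave 25 to 26 and 145 to 149. None of these alternatives assigns reads that map to several places to genes, so the ranks were not tested for that loss. With multimapping reads in the denominator the library ratio of Mir483 passed the test, at a log2 ratio of 0.07 (exact binomial, adjusted p = 6.32e-08); its adjusted p under the other alternatives ran from 0.143 to 1.0, and that of Mir675 from 0.458 to 1.0. The number of genes called was 4 by edgeR's exact test and 11 with a 2-fold minimum, against 123. The dispersion in edgeR's test came from the same 2 libraries, so a low number was built in. Depth limits Mir675 in replicate 2, which rests on 474 counts. No paired analysis was possible because the design has 1 group.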
